A study of Mus musculus with 20 samples.

Results

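The genes described here were the Fos and Jun family of transcription factors, which form the AP-1 complex, with Atf3, a close relative: Fos, Fosb, Fosl1, Fosl2, Jun, Junb, Jund and Atf3, 8 of the 27669 gene symbols on a whole mouse genome array. They were taken by symbol rather than by a cut on their measured values. The family and the lists below were, however, chosen with earlier results of these data known. The array named 7 of them by the current symbol, and the eighth, Jund, was found through its transcript accession because the array gives it an older name. Where a gene had more than 1 probe, the probe with the highest mean signal over all arrays was used.

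RNA was measured in the uteri of ovariectomized C57bl6/J female mice at least 10 weeks old, 1 uterus on each of 20 one-colour Agilent arrays. All mice were rested for 10 to 14 days after ovariectomy and then received a single subcutaneous injection in 100 µl of sesame oil. The groups were vehicle (oil alone, 3 arrays, labelled 24 h), estradiol (E2, the main ovarian estrogen, 250 ng) at 2 h (3 arrays) and 24 h (2 arrays, replicates 2 and 3), bisphenol A (BPA, 750 µg) at 2 h and 24 h (3 arrays each), and HPTE (750 µg) at 2 h and 24 h (3 arrays each). BPA is the monomer of polycarbonate plastic, and HPTE forms in the body from the pesticide methoxychlor. Both are bisphenols that bind estrogen receptors, and HPTE carries a trichloromethyl group on its bridging carbon where BPA carries methyl groups. BPA and HPTE were given at the same dose by mass, while the E2 dose was smaller, so comparisons with E2 match in time but not in dose. The model is the ovariectomized uterus, which lacks its own cyclic supply of ovarian steroids, and the same vehicle arrays were the reference for both times because no vehicle array was labelled 2 h. Comparisons of 2 h arrays with vehicle therefore differ in both compound and time since injection, and the 2 cannot be told apart. Without a 2 h vehicle, the same limit holds for changes between 2 h and 24 h within a compound.

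Fos and Jun proteins carry a basic region that contacts DNA and a leucine zipper that pairs them. Fos proteins need a Jun partner, whereas Jun proteins can also pair with each other or with ATF proteins, and the pairs bind a short element called the AP-1 site. Several of the genes are early-response genes, transcribed within minutes of a growth factor or hormone signal without new protein synthesis. Several of the messenger RNAs are short-lived. In the uterus some of the genes are textbook early targets of estrogen. The estrogen receptor can also act at AP-1 sites through Fos and Jun proteins without touching DNA itself.

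The promoters of 4 members are printed here because the results below turn on Fos and Jun, and Fosb and Junb are a close relative of each. Each line is the last 150 bases before the transcription start in the RefSeq table, build GRCm38.p6, written 5′ to 3′ on the strand of the gene, and capitals mark the cAMP response element half-site TGACG, the element with 1 base left free, TGACNTCA, and the TATA box TATAAA where they occur on either strand.
Fos (chr12:85473740-85473889, plus strand): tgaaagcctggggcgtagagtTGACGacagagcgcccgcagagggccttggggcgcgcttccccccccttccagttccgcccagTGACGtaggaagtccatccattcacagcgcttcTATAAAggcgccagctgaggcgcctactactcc
Fosb (chr7:19310046-19310195, minus strand): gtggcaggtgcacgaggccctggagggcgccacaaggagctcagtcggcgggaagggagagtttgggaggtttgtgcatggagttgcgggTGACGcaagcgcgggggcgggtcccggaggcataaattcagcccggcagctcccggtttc
Jun (chr4:95052223-95052372, minus strand): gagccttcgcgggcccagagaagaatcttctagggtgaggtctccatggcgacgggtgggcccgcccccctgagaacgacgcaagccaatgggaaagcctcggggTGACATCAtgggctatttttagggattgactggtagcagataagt
Junb (chr8:84978749-84978898, minus strand): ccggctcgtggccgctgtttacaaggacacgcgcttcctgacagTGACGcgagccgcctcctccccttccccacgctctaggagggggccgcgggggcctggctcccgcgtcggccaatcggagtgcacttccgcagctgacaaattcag

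The table held promoters of 7 of the 8 members, all but Fosl1, and the 250 bases before each start were searched on both strands. The half-site TGACG was in 4 of the 7 promoters (Fos, Fosb, Junb and Atf3), against 17.8% of the 32851 promoters in the table. Fos held it at 129 to 125 and at 66 to 62 bases before the start, followed by a TATA box at 33 to 28 bases. Jun held TGACNTCA, spelled TGACATCA, at 45 to 38 bases, an element in 7.49% of all promoters and in no other member. This element contains the half-site only where its free base is G, so the Jun site was not counted as a half-site. The TATA box TATAAA was in 1 of the 7 and in 12.4% of all promoters, and the GC box GGGCGG was in 5 of the 7 and in 32.7%. No member promoter held the AP-1 site TGANTCA (6.75% of all promoters), the CArG box bound by serum response factor (1.47%) or the full palindromic oestrogen response element (0.0639%) in this window. These counts describe letters in the window and are not a measurement of binding.

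A level below is the log2 processed intensity of a probe minus the log2 of the 75th percentile of its array, so that 0 is the intensity of the 75th percentile (1320 to 2046 over the arrays). Differences were tested with limma over 32460 probes, and a change was called at an adjusted p below 0.05. All 8 members were above background and unsaturated on all 20 arrays, and arrays of a group correlated at r = 0.975 to 0.993 over all probes. The markers of uterine epithelium (6 genes), stroma (6) and smooth muscle (5) were above background on every array, and the ovary and oviduct markers summed to between 0.411 and 1.06 in units of the 75th percentile. Some arrays carried transcripts foreign to the uterus. The summed level of 10 pancreatic acinar markers was 2660 on E2 2 h replicate 2 and 139 on replicate 3 but 0.348 on replicate 1, was 3.66 and 9.9 on the E2 24 h arrays, and lay between 0.257 and 0.605 on all others. The summed level of 8 sperm cell markers was 33.7 to 113 in vehicle, 6.64 to 13.9 and 3.35 to 6.05 with BPA at 2 h and 24 h, 2.08 to 6.27 and 1.4 to 1.92 with HPTE, and 0.334 to 1.58 over the E2 arrays. The part of these transcripts in the results below was not tested. Results that rest on E2 2 h replicates 2 and 3 are also given without them where the call changed, a choice made after seeing the data, and E2 2 h is then 1 array that is assumed to vary like the other groups.

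At 2 h the whole family was higher with every compound than in the 24 h vehicle. All 8 members rose with E2, all 8 with BPA and all 8 with HPTE, and for each member and each compound all treated arrays lay above all vehicle arrays. Over all probes, 11.1% were called higher with E2 (28.1% in either direction), 19.3% with BPA (49.4%) and 19.9% with HPTE (48.1%). The median change of the 8 members was 2.12, 2.64 and 2.67 on the log2 scale, while the median over all probes was -0.06, -0.10 and -0.09. Because a whole uterus was measured, a higher level can mean more RNA per cell or more cells of a type that makes it, and a lower level the reverse. At 2 h the summed level of 5 leukocyte markers was 92.7 to 161 with E2, 107 to 139 with BPA and 69.1 to 89.7 with HPTE, against 85.4 to 95.7 in vehicle. That of the 6 epithelial markers was 93.2 to 99, 46.5 to 71.6 and 68 to 76.4, against 80.2 to 93.8. The part of these in the rise was not tested. Arrays on a slide that also held a vehicle array gave 40 differences between a 2 h array and its own vehicle array, and all 40 were positive, from 0.27 to 5.50. They came from 8 genes on 5 arrays, set against vehicle replicates 1 and 2, so they are not 40 independent results. The only E2 array among them was replicate 2, with the summed pancreatic level of 2660. The shares of all probes that were positive here, or did not overlap with vehicle, were not computed.

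**Figure D1:**
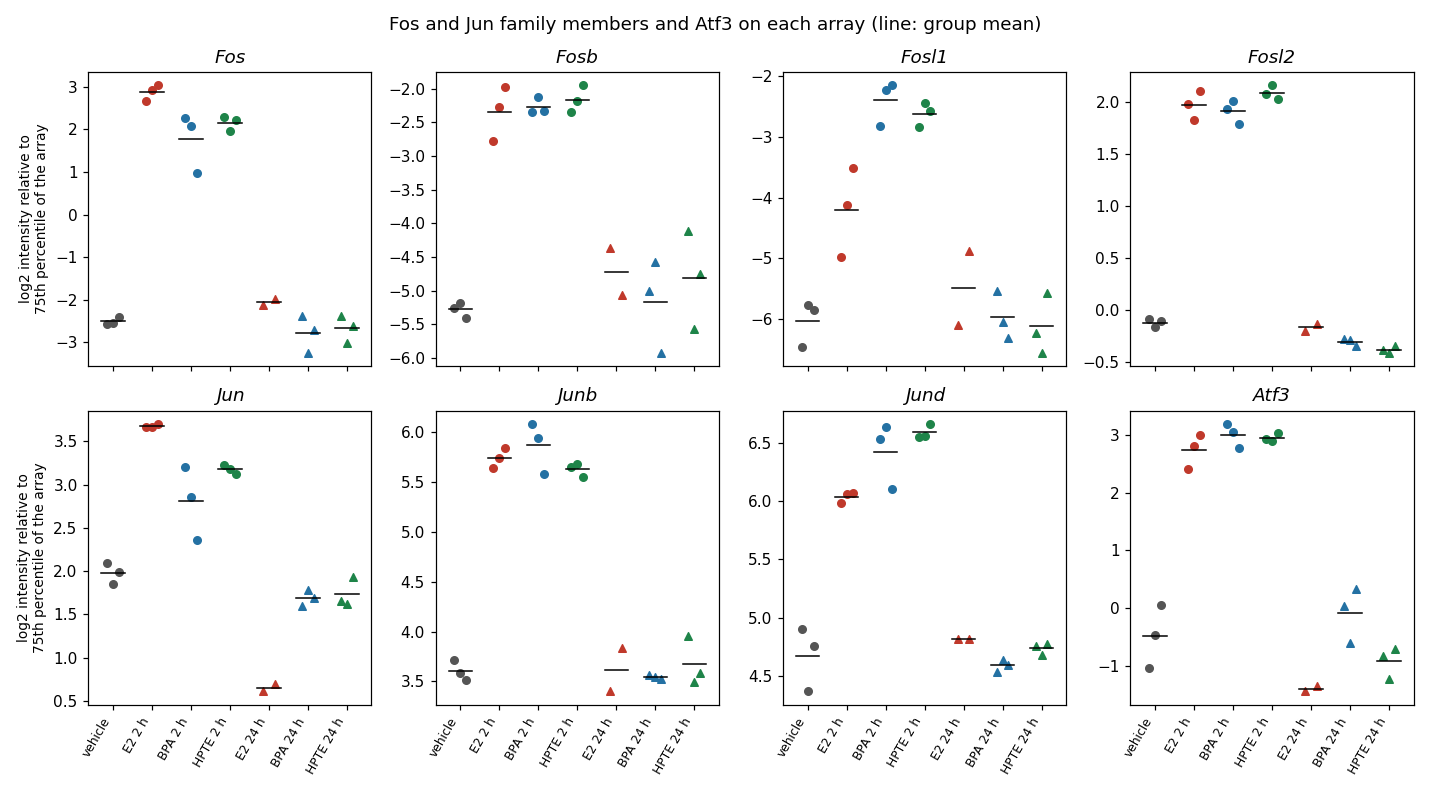
Level of each of the 8 genes on each array (y axis, log2 intensity minus the log2 of the array's 75th percentile) in the 7 groups (x axis), with 1 point for each array and a line at each group mean. In every panel the 2 h groups sit above vehicle, and the 24 h groups lie far below the 2 h groups except for Fosl1 with E2, with Jun and Atf3 lowest with E2.

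Among the Fos genes, Fos itself, the founding member and the partner that activates most strongly, changed most. Its levels were -2.58, -2.54 and -2.40 in vehicle, 2.66, 2.92 and 3.04 with E2, 2.26, 2.07 and 0.97 with BPA and 2.30, 1.96 and 2.22 with HPTE. Every E2 array was above every BPA and HPTE array, BPA and HPTE overlapped, and BPA replicate 3 was the lowest treated array. Fos rose by 5.38 with E2 (SE 0.28, 41.7-fold, adjusted p = 9.83e-09), by 4.28 with BPA (19.4-fold, adjusted p = 4.82e-08) and by 4.67 with HPTE (25.5-fold, adjusted p = 2.33e-08). The probe was spotted 10 times on each array, and its spots had a median SD of 0.052.

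Fosb, a Fos paralog with a strong activation domain, was dim in vehicle, at intensities of 40.9 to 48.6. Its levels were -5.25, -5.18 and -5.40 in vehicle, -2.78, -2.28 and -1.98 with E2, -2.34, -2.13 and -2.33 with BPA and -2.35, -2.19 and -1.95 with HPTE. The 3 treated groups overlapped with each other and lay far above vehicle. Fosb rose by 2.93 with E2 (SE 0.35, 7.64-fold, adjusted p = 2.06e-05), by 3.01 with BPA (8.08-fold, adjusted p = 8.13e-06) and by 3.12 with HPTE (8.68-fold, adjusted p = 4.84e-06). With normexp background correction and quantile scaling these rises were smaller, at 1.76, 1.86 and 1.97. With quantile scaling alone they were 3.23, 3.32 and 3.48.

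Fosl1 encodes a Fos relative that lacks the strong activation domain of Fos, and its level was higher with BPA and HPTE than with E2. Its levels were -6.46, -5.76 and -5.85 in vehicle (intensities of 18.9 to 32.6), -4.97, -4.12 and -3.51 with E2, -2.82, -2.23 and -2.15 with BPA and -2.83, -2.45 and -2.58 with HPTE. BPA and HPTE overlapped, and every E2 array was below them. Fosl1 rose by 1.82 with E2 (SE 0.39, 3.53-fold, adjusted p = 0.00244), by 3.62 with BPA (12.3-fold, adjusted p = 3.47e-06) and by 3.40 with HPTE (10.6-fold, adjusted p = 4.84e-06). With normexp background correction and quantile scaling these rises were smaller, at 0.78, 1.89 and 1.79. With quantile scaling alone they were 2.18, 3.97 and 3.83. The E2 array without pancreatic transcripts, replicate 1, was the lowest of its group, and it was also the lowest E2 array for Fos, Fosb, Junb, Jund and Atf3. On replicate 1 alone the E2 change of Fosl1 was 1.05 (adjusted p = 0.182), which did not pass, while the other 7 members were still called.

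Fosl2, the other Fos relative without that domain, had the smallest spread. Its levels were -0.09, -0.16 and -0.11 in vehicle, 1.98, 1.83 and 2.10 with E2, 1.93, 2.01 and 1.79 with BPA and 2.08, 2.16 and 2.03 with HPTE. The 3 treated groups formed overlapping neighbours in the order of their means. Fosl2 rose by 2.09 (SE 0.07, 4.25-fold, adjusted p = 1.48e-10), 2.03 (4.08-fold, adjusted p = 3.37e-10) and 2.21 (4.63-fold, adjusted p = 1.66e-10) with E2, BPA and HPTE. A second, dimmer probe of the gene rose by 1.86, 1.74 and 1.96.

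Among the Jun genes, Jun, the most active DNA-binding partner of Fos, rose least with the xenoestrogens. Its levels were 2.09, 1.85 and 1.99 in vehicle, 3.67, 3.66 and 3.70 with E2, 3.20, 2.86 and 2.36 with BPA and 3.23, 3.18 and 3.12 with HPTE. The E2 arrays were above all others, and BPA replicate 3 was again the lowest treated array. Jun rose by 1.70 with E2 (SE 0.15, 3.26-fold, adjusted p = 1.78e-06), by 0.83 with BPA (1.78-fold, adjusted p = 0.000364) and by 1.20 with HPTE (2.30-fold, adjusted p = 1.26e-05).

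Junb, a Jun paralog that can restrain Jun, changed by nearly the same amount with each compound. Its levels were 3.71, 3.58 and 3.51 in vehicle, 5.64, 5.74 and 5.84 with E2, 6.08, 5.94 and 5.58 with BPA and 5.65, 5.68 and 5.55 with HPTE. The treated groups overlapped. It rose by 2.14 (SE 0.14, 4.4-fold, adjusted p = 1.16e-07), 2.27 (4.82-fold, adjusted p = 3.28e-08) and 2.02 (4.07-fold, adjusted p = 7.48e-08) with E2, BPA and HPTE.

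Jund, the Jun gene usually described as broadly and steadily expressed, also changed. Its levels were 4.90, 4.37 and 4.76 in vehicle, 5.98, 6.06 and 6.07 with E2, 6.53, 6.63 and 6.10 with BPA and 6.55, 6.56 and 6.66 with HPTE. Every BPA and HPTE array was above every E2 array. It rose by 1.36 with E2 (SE 0.13, 2.57-fold, adjusted p = 2.99e-06), 1.74 with BPA (3.35-fold, adjusted p = 1.52e-07) and 1.91 with HPTE (3.77-fold, adjusted p = 5.76e-08).

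Atf3, a stress-responsive factor that pairs with Jun proteins and often represses, had the widest spread in vehicle, where its levels were -1.03, -0.46 and 0.06. They were 2.41, 2.81 and 3.00 with E2, 3.19, 3.05 and 2.77 with BPA and 2.93, 2.89 and 3.03 with HPTE. The treated groups overlapped and were all above vehicle. Atf3 rose by 3.22 (SE 0.26, 9.31-fold, adjusted p = 9.71e-07), 3.48 (11.2-fold, adjusted p = 1.68e-07) and 3.43 (10.8-fold, adjusted p = 1.55e-07) with E2, BPA and HPTE.

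**Figure D2:**
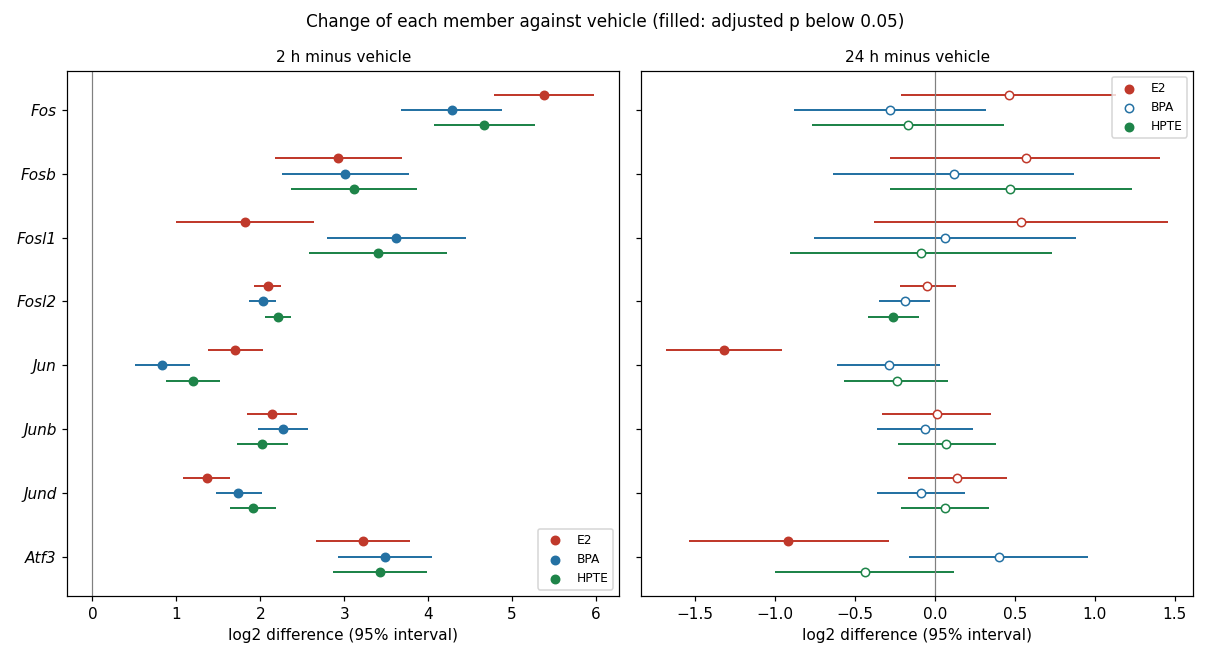
Change of each gene against vehicle (x axis, log2 difference) for E2, BPA and HPTE at 2 h and at 24 h, with 95% intervals from limma; filled points had an adjusted p below 0.05. At 2 h all 24 points are filled and right of 0, and at 24 h the filled points are Jun and Atf3 with E2 and Fosl2 with HPTE, all left of 0.

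At 24 h few members differed from vehicle by the test, and those called were lower. With E2, Jun and Atf3 fell and 6 members did not pass, with HPTE Fosl2 fell and 7 did not pass, and with BPA no member was called and 1 had an unadjusted p below 0.05. Over all probes, 63.8% were called with E2 (37.6% lower), 34% with HPTE (19.1% lower) and 13.1% with BPA, so the members' 2 of 8, 1 of 8 and 0 of 8 were smaller shares than those of the array. With quantile scaling the E2 count was 5 of 8, with Fosb and Fosl1 called higher, against 60.7% of all probes. The members' median changes were 0.08 with E2, -0.13 with HPTE and -0.07 with BPA, beside -0.15, -0.06 and -0.03 over all probes.

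Jun was 0.61 and 0.69 with E2 at 24 h, 1.60, 1.78 and 1.69 with BPA and 1.65, 1.62 and 1.93 with HPTE, against 1.85 to 2.09 in vehicle. The E2 arrays were the lowest of all 20, the BPA arrays were below vehicle without overlap, and HPTE overlapped with vehicle. With E2 Jun fell by 1.32 on the log2 scale (SE 0.17, 2.50-fold lower, adjusted p = 6.94e-06), while the differences of -0.29 with BPA (adjusted p = 0.232) and -0.24 with HPTE (adjusted p = 0.236) did not pass. The E2 array that shared a slide with a vehicle array differed from it by -1.29.

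Atf3 was -1.44 and -1.35 with E2 at 24 h, 0.03, -0.60 and 0.34 with BPA and -0.83, -1.23 and -0.70 with HPTE. The E2 arrays were below every vehicle array, and the other groups overlapped with vehicle. With E2 it fell by 0.92 on the log2 scale (SE 0.29, 1.89-fold lower, adjusted p = 0.0128). This call was lost without vehicle replicate 3 (-0.65, adjusted p = 0.0596), without E2 replicate 2 (-0.88, adjusted p = 0.0662), when only these groups were fitted (adjusted p = 0.0579) and with spike-in scaling (adjusted p = 0.1). On the E2 24 h arrays the summed level of the leukocyte markers was 53.6 to 55.2 against 85.4 to 95.7 in vehicle, that of 5 adipocyte markers 15.9 to 20 against 40 to 90.2, and that of the uterine epithelium markers 172 to 198 against 80.2 to 93.8. Among the leukocyte markers, Lyz2 had the highest level and fell from 6.48 to 5.73, and Ptprc fell from 1.20 to 0.15. Cd3e, Cd79a and Itgam were slightly higher than in vehicle (-4.28 against -4.36, -6.08 against -6.41 and -2.62 against -2.74). The epithelial marker Wnt7a went against its sum, at -0.77 against 0.58. Of 5 skeletal muscle markers Acta1 had a mean level of 3.78 against 1.91 in vehicle, while the means of Myh4, Myl1 and Tnnt3 were below those of vehicle and Ckm was at -5.69 against -5.92. The part of these in the lower Jun and Atf3 was not tested.

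Fosl2 was -0.38, -0.41 and -0.35 with HPTE at 24 h, -0.28, -0.29 and -0.35 with BPA and -0.20 and -0.13 with E2. The HPTE and BPA arrays were all below vehicle, and E2 overlapped with it. The difference with HPTE was -0.26 (SE 0.07, adjusted p = 0.0149), and that with BPA, -0.19, did not pass (adjusted p = 0.116). The second probe of Fosl2 differed by 0.22 with HPTE (adjusted p = 0.415), in the other direction, and the call on the first probe was lost without vehicle replicate 1 (-0.24, adjusted p = 0.0506), without scaling (-0.37, adjusted p = 0.0677), with spike-in scaling (-0.56, adjusted p = 0.197) and with slide as a fixed block (-0.26, adjusted p = 0.0993).

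Fos, Fosb and Fosl1 did not pass the test at 24 h with any compound in the fit over all groups. Fos was -2.12 and -1.98 with E2 at 24 h, above each vehicle array, a difference of 0.46 that did not pass (adjusted p = 0.22), although it did with only these groups fitted (adjusted p = 0.0207). It was -2.39, -3.25 and -2.71 with BPA and -2.39, -3.03 and -2.62 with HPTE, both overlapping with vehicle. Fosb was -4.36 and -5.07 with E2 at 24 h, -5.00, -4.57 and -5.92 with BPA and -4.11, -5.57 and -4.75 with HPTE. Only the E2 arrays lay apart from vehicle, and that difference, 0.57, did not pass (adjusted p = 0.229), although it did with quantile scaling (1.09, adjusted p = 0.0132) and with slide as a fixed block (0.72, adjusted p = 0.0244). With HPTE the difference of 0.47 (adjusted p = 0.33) was larger under that block and passed (adjusted p = 0.0158). Fosl1 was -6.10 and -4.88 with E2, -5.53, -6.05 and -6.31 with BPA and -6.23, -6.55 and -5.56 with HPTE, each overlapping with vehicle. Its difference of 0.54 with E2 (adjusted p = 0.297) also passed with quantile scaling (1.15, adjusted p = 0.0201) and with the slide block (0.88, adjusted p = 0.0472).

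Junb was 3.40 and 3.83 with E2 at 24 h, 3.56, 3.54 and 3.52 with BPA and 3.96, 3.49 and 3.58 with HPTE. Jund was 4.82 and 4.82 with E2, 4.54, 4.64 and 4.60 with BPA and 4.76, 4.68 and 4.78 with HPTE. Both genes overlapped with vehicle in every group, with differences between -0.09 and 0.14. With E2 the sign depended on the scaling, since quantile scaling gave -0.33 for Junb (adjusted p = 0.049) and -0.25 for Jund (adjusted p = 0.136).

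Comparing 24 h with 2 h within each compound, which uses no vehicle array, all 8 members were lower at 24 h with E2, with BPA and with HPTE. Over all probes 30.1%, 20.2% and 24.6% were called lower. The share of all probes whose arrays of the 2 times did not overlap was not computed. The members' median differences were -2.25, -2.62 and -2.56. The log2 differences with E2, BPA and HPTE were -4.92, -4.56 and -4.84 for Fos, -2.37, -2.90 and -2.64 for Fosb, -1.29, -3.56 and -3.49 for Fosl1, and -2.13, -2.22 and -2.47 for Fosl2. In the Jun group they were -3.03, -1.12 and -1.44 for Jun, -2.13, -2.33 and -1.95 for Junb, and -1.22, -1.83 and -1.85 for Jund. Fos had the largest difference with every compound, and Atf3 followed with E2 and HPTE at -4.14 and -3.87, beside -3.08 with BPA. Arrays of the 2 times did not overlap for any member and compound except Fosl1 with E2 (adjusted p = 0.019), where the difference was -0.51 (adjusted p = 0.453) with E2 2 h replicate 1 alone. Without E2 2 h replicate 3 it was -0.94 (adjusted p = 0.0831) and without E2 24 h replicate 2 it was -0.68 (adjusted p = 0.291), and it did not pass without scaling (adjusted p = 0.0655), with spike-in scaling (adjusted p = 0.109) or with only these groups fitted (adjusted p = 0.114).

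The size of the fall over time was then compared between E2 and the xenoestrogens, as a test of the difference itself. Against BPA, 4 of 8 members differed (50.9% of all probes did), and against HPTE 4 of 8 (46.1% of all probes), so the members' share was close to that of the array. Jun was the clearest: its fall was smaller by 1.90 with BPA (SE 0.23, adjusted p = 6.75e-06) and by 1.58 with HPTE (SE 0.23, adjusted p = 5.25e-05) than with E2, of which the latter was 0.93 (adjusted p = 0.129) with spike-in scaling. Fosl1 fell further with BPA, by a difference of -2.28 (SE 0.58, adjusted p = 0.00396), and with HPTE, by -2.21 (SE 0.58, adjusted p = 0.00566), which became -1.60 (adjusted p = 0.0525) without E2 24 h replicate 3. Without E2 2 h replicates 2 and 3 these differences were 1.89 and 1.57 for Jun and -3.05 and -2.98 for Fosl1, all still called, and that of Atf3 with BPA lost its call, from 1.05 (adjusted p = 0.0361) to 0.72 (adjusted p = 0.245). Between HPTE and BPA no member differed (0.0863% of all probes did), and 1 had an unadjusted p below 0.05 with limma.

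The matched pair of compounds, HPTE and BPA at the same dose and time, did not differ in any member at 2 h or at 24 h by limma. With 8 genes at each of 2 times, 16 differences were compared, with p-values adjusted over all probes within each time. Over all probes 0.437% were called at 2 h and 4.08% at 24 h. Unadjusted p-values below 0.05 were found for 2 members at 2 h and 1 at 24 h. At 2 h the differences, HPTE minus BPA, ran from -0.25 for Junb to 0.39 for Fos. The interval for Fos was -0.21 to 0.99 (95%, adjusted p = 0.531), that for Jun, at 0.37, was 0.04 to 0.69 (adjusted p = 0.245), and that for Fosl1, at -0.22, was -1.04 to 0.60 (adjusted p = 0.841). The intervals of Fosl2, 0.02 to 0.34 around 0.18, and of Jund, -0.11 to 0.45 around 0.17, were the narrower ones. Without BPA replicate 3 the difference became -0.01 for Fos and 0.14 for Jun. At 24 h the largest difference was in Atf3, -0.84 (interval -1.40 to -0.28, adjusted p = 0.0812), where the HPTE arrays were all below the BPA arrays.

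Against E2 at 2 h, with unequal doses, Fosl1 was higher with both xenoestrogens, and Jun was lower, though the Jun calls depended on the scaling. BPA differed from E2 in 3 of 8 members (19% of all probes) and HPTE in 3 of 8 (16.6%). Fosl1 was higher than with E2 by 1.80 with BPA (SE 0.39, 3.49-fold, adjusted p = 0.00568) and by 1.58 with HPTE (SE 0.39, 2.99-fold, adjusted p = 0.0117). Without the E2 arrays that held pancreatic transcripts these differences were 2.57 (adjusted p = 0.00862) and 2.35 (adjusted p = 0.0119). Jun differed by -0.87 with BPA (adjusted p = 0.00172) and by -0.50 with HPTE (adjusted p = 0.0345). Fos differed by -1.10 with BPA (adjusted p = 0.0143) and by -0.71 with HPTE, which did not pass (adjusted p = 0.0997), although no array overlapped. Jund was higher by 0.55 with HPTE (SE 0.13, adjusted p = 0.00949) and by 0.38 with BPA, which did not pass (adjusted p = 0.0512).

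Several of these calls were fragile. With spike-in scaling the shares of all probes called were 1.95% for BPA and 2.46% for HPTE against E2. The HPTE difference in Jun was -0.13 without scaling (adjusted p = 0.599) and -0.18 with spike-in scaling (adjusted p = 0.736), and the BPA difference in Jun was -0.70 with spike-in scaling (adjusted p = 0.294). That in Fos with BPA was lost without scaling (-0.81, adjusted p = 0.0597) and with spike-in scaling (-0.94, adjusted p = 0.258), and that in Jund with HPTE with spike-in scaling (0.88, adjusted p = 0.0812). With only the E2 2 h and BPA 2 h arrays in the fit 1.27% of all probes were called. None of the 3 BPA differences was called then, with adjusted p = 0.0894 for Fosl1, 0.108 for Jun and 0.153 for Fos. The call of Jun with HPTE was lost on leaving out any 1 of the 6 arrays compared (adjusted p = 0.0669 to 0.0959), and that of Fosl1 with HPTE without E2 replicate 1 (1.20, adjusted p = 0.0602). Without BPA replicate 3 the BPA difference in Fos was -0.71 and was still called. Without E2 replicates 2 and 3 the HPTE differences in Jun (-0.49, adjusted p = 0.206) and Jund (0.61, adjusted p = 0.0691) and the BPA difference in Fos (-0.89, adjusted p = 0.193) did not pass. With slide as a fixed block the BPA difference in Fos (adjusted p = 0.0535) and the HPTE differences in Jun (adjusted p = 0.0857) and Jund (adjusted p = 0.0662) did not pass either.

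At 24 h BPA differed from E2 in 2 of 8 members (57.8% of all probes) and HPTE in 2 of 8 (48.8%). Jun was higher than with E2 by 1.03 with BPA (SE 0.17, 2.05-fold, adjusted p = 9.7e-05) and by 1.08 with HPTE (SE 0.17, 2.11-fold, adjusted p = 9.07e-05), so that its order against E2 was the reverse of that at 2 h. With spike-in scaling the HPTE difference in Jun was 0.75 (adjusted p = 0.114). Atf3 was higher than with E2 by 1.32 with BPA (SE 0.29, 2.49-fold, adjusted p = 0.00129), and by 0.47 with HPTE, which did not pass (adjusted p = 0.201). Fosl2 differed by -0.21 with HPTE (adjusted p = 0.0451), a call lost on leaving out any 1 of the arrays compared (adjusted p = 0.0652 to 0.221), and it was 0.04 when both its probes were averaged.

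**Figure D3:**
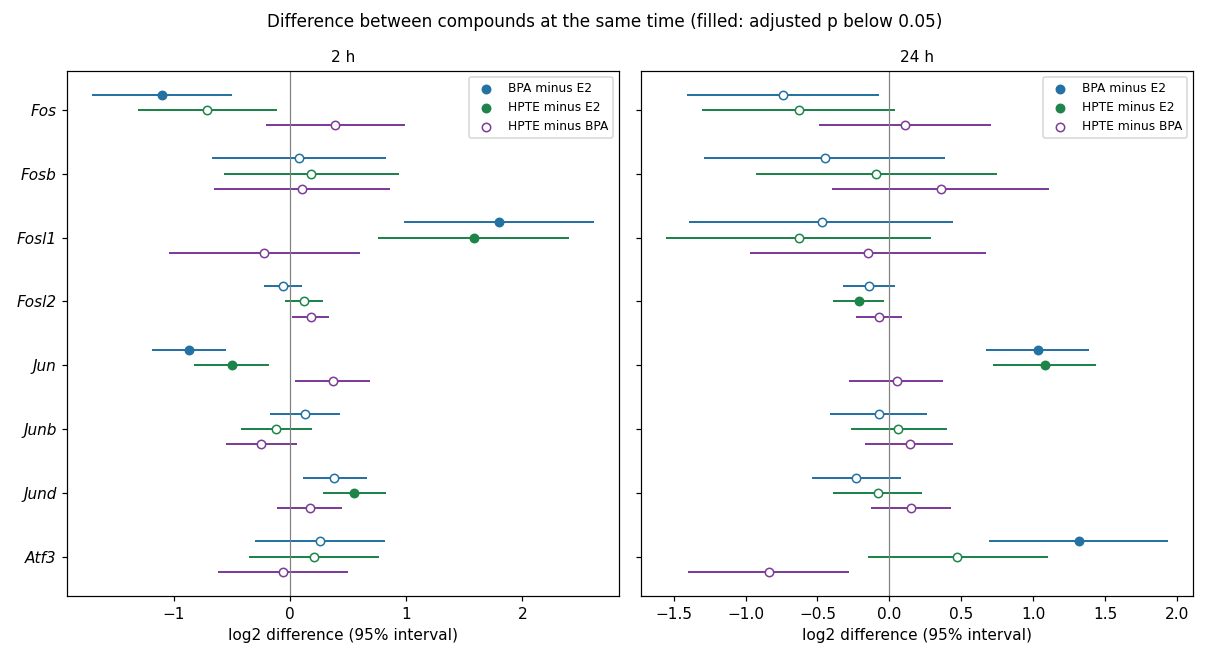
Differences between compounds in each gene (x axis, log2 difference) at 2 h and at 24 h for HPTE against BPA, BPA against E2 and HPTE against E2, with 95% intervals from limma; filled points had an adjusted p below 0.05. No HPTE against BPA point is filled, and Jun is left of 0 against E2 at 2 h and right of 0 at 24 h.

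Genes around the family were described from 4 lists. For each contrast, genes were named from the up to 4 called with the largest change. A compound missing beside a gene therefore does not mean that the gene was unchanged with it. Of 30 other early genes, 28 were tested. At 2 h 24 were higher and none lower with E2 (85.7% called, median 1.96), 26 higher and none lower with BPA (92.9%, 1.87), and 24 higher and 1 lower with HPTE (89.3%, 1.83). Over all probes 28.1%, 49.4% and 48.1% were called. Egr4, an early zinc finger factor, was higher by 7.36, 6.76 and 6.96 with E2, BPA and HPTE, Egr3 of the same family by 5.15, 4.65 and 4.84, and Arc, best known from synapses, by 4.97, 5.02 and 5.23. Gadd45g, a growth arrest and stress gene, was higher by 4.76 with E2, and Ccn1, a matrix signal protein, by 4.42 with BPA and 4.51 with HPTE. The mean level of Gadd45g was also 6.90 with BPA and 7.44 with HPTE against 3.07 in vehicle. That of Ccn1 was 4.01 with E2 against -0.30. At 24 h 3 were higher and 17 lower with E2 (71.4% called, median -0.48), 0 and 3 with BPA (10.7%, -0.14), and 1 and 8 with HPTE (32.1%, -0.24). In either direction these shares were near those of all probes, 63.8%, 13.1% and 34%. Called lower were 17 of 28 with E2 and 8 of 28 with HPTE, beside 37.6% and 19.1% of all probes. With E2 at 24 h Arc was lower by a log2 difference of -1.69, Egr3 of -1.61 and the matrix protein gene Ccn2 of -1.42. Egr4 was not well above background on either E2 24 h array and was at least 2.01-fold lower (adjusted p = 8.69e-06), a bound that sets the dim group at the higher of its own signal and the lowest signal above background on each array.

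The 28 other bZIP factors, which share the zipper fold and include partners of Fos and Jun, were more divided. At 2 h 14 were higher and 3 lower with E2 (60.7% called, median 0.29), 15 and 3 with BPA (64.3%, 0.50), and 15 and 4 with HPTE (67.9%, 0.42). Cebpb, a factor of inflammation and decidual differentiation, was higher by 3.15, 2.30 and 3.04 with E2, BPA and HPTE, and Nfil3, a repressor of the circadian clock, by 2.31, 2.33 and 2.93. Jdp2, which pairs with Jun and represses, was higher by 1.58 with E2 and 2.30 with HPTE. The small Maf gene Maff was higher by 1.43 with E2 and 2.19 with BPA, and Atf4, a factor of the amino acid response, by 2.15 with BPA and 2.21 with HPTE. At 24 h 3 were higher and 12 lower with E2 (53.6%, median -0.26), 0 and 3 with BPA (10.7%, -0.08), and 0 and 11 with HPTE (39.3%, -0.29). Over all probes the shares called were 28.1%, 49.4% and 48.1% at 2 h and 63.8%, 13.1% and 34% at 24 h. At 24 h the list's shares in either direction were thus below or near those of the array. Called lower were 12 of 28 with E2 and 11 of 28 with HPTE, beside 37.6% and 19.1% of all probes. With E2 at 24 h the repressor gene Bach2 differed by -2.49, Maf by -1.42 and Ddit3, a stress factor, by -1.32.

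Of 33 genes with well known AP-1 sites, 29 were tested, and their share called in either direction was nearer to that of all probes. At 2 h 11 were higher and none lower with E2 (37.9% called, median 0.31), 12 and 5 with BPA (58.6%, 0.34), and 9 and 5 with HPTE (48.3%, 0.08). Vegfa, the vascular growth factor gene, was higher by 2.34, 2.31 and 2.77 with E2, BPA and HPTE, Plaur, the urokinase receptor gene, by 2.03, 2.69 and 2.66, and Hbegf, an epidermal growth factor receptor ligand gene, by 2.02, 2.59 and 2.65. Plau, the urokinase gene, was higher by 1.97 with E2 and 1.61 with HPTE. The cytokine gene Il6 was not well above background in vehicle and was at least 3.01-fold higher with BPA (adjusted p = 7.81e-06). At 24 h 11 were higher and 5 lower with E2 (55.2%, 0.28), 4 and 3 with BPA (24.1%, 0.24), and 4 and 4 with HPTE (27.6%, 0.21). The shares of all probes in either direction were 28.1%, 49.4% and 48.1% at 2 h and 63.8%, 13.1% and 34% at 24 h. Called higher at 2 h were 11.1%, 19.3% and 19.9% of all probes, beside 11, 12 and 9 of the 29 genes. With E2 at 24 h Sprr1a, a gene of the cornified epithelial envelope, was higher by 6.40 and the protease inhibitor gene Timp1 by 2.42, while the protease gene Mmp10 differed by -3.39. Ivl, another envelope gene, was not well above background in vehicle and was at least 2.41-fold higher (adjusted p = 5.21e-06). The list shares Krt8, Krt18 and Dcn with the epithelial and stromal markers, and the summed epithelial markers ranged from 46.5 with BPA at 2 h to 198 with E2 at 24 h, whose part in these counts was not tested.

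Of 30 kinases and serum response factor partners upstream of Fos and Jun, 29 were tested. At 2 h 8 were higher and 1 lower with E2 (31% called, median 0.02), 12 and 5 with BPA (58.6%, 0.14), and 12 and 5 with HPTE (58.6%, 0.13). Beside these, 28.1%, 49.4% and 48.1% of all probes were called. Srf, the serum response factor gene itself, was higher by 0.72, 1.38 and 1.64 with E2, BPA and HPTE, and Map2k1, which activates the ERK kinases, by 0.68, 1.31 and 1.35. Map3k8 differed by -1.26 with E2 and -1.71 with HPTE. Igf1, the uterine growth factor gene, was higher by 1.25 with E2 and 0.82 with BPA. At 24 h 14 were higher and 8 lower with E2 (75.9%, 0.20), 4 and 0 with BPA (13.8%, 0.06), and 9 and 1 with HPTE (34.5%, 0.08), beside 63.8%, 13.1% and 34% of all probes. With E2 at 24 h Igf1 was higher by 2.10 and Rps6ka3 by 1.77, while Igf1r, the receptor of Igf1, differed by -2.02 and Map3k8 by -1.38.

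**Figure D4:**
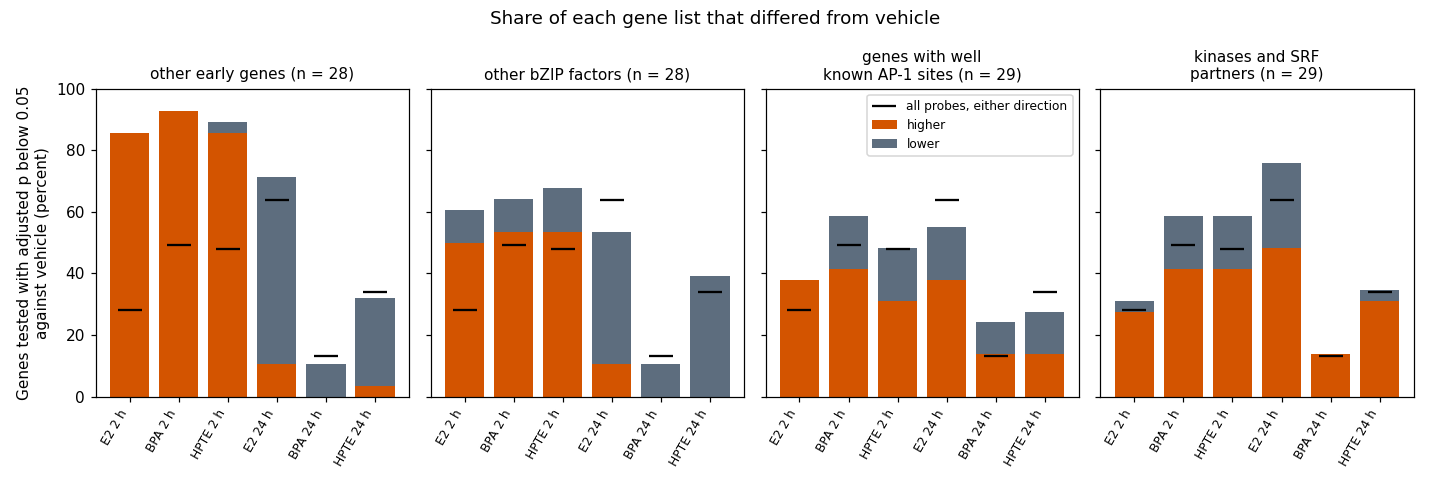
Percent of tested genes called higher or lower against vehicle (y axis) in each of the 4 lists, for E2, BPA and HPTE at 2 h and at 24 h; the dash marks the percent of all probes called in either direction. The other early genes stand highest above their dashes at 2 h, where 24 to 26 of 28 were higher.

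Across the 20 arrays the members resembled each other, with Pearson r from 0.67 to 0.98 over their 28 pairs (median 0.93). These correlations share the same arrays, scaling and groups, and are given as a description. Among 15964 named genes, the closest to Fos were Gadd45g (r = 0.992), Errfi1 (0.991) and Ier2 (0.989), and to Fosb Lrtm2 (0.968), Csrnp1 (0.964) and Sult2a8 (0.962). The closest to Fosl1 were Rcan1 (0.970), Phf23 (0.968) and Smcr8 (0.967), and to Fosl2 Ccn1 (0.995), Ier2 (0.993) and Nr4a1 (0.990). For Junb they were Oxtr, the oxytocin receptor gene (0.990), Nr4a1 (0.988) and Csrnp1 (0.986), for Jund Zfp948 (0.992), Midn (0.991) and Pvr (0.987), and for Atf3 Zfp36 (0.984), Egr3 (0.982) and Mdfic (0.980).

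For Jun they were Axin2 (0.972), Pim1 (0.970) and Gadd45b (0.968). The closest genes of Fosl1, Jun, Jund and Atf3 were shared with no other member. Axin2, a Wnt pathway feedback gene, had a mean level of 1.24 in vehicle and 2.48 with E2 at 2 h, then -0.49 with E2, 0.59 with BPA and 0.56 with HPTE at 24 h, so its lowest group was E2 at 24 h as it was for Jun. With Spearman correlation 1 of the 3 closest genes was shared for Fos, Fosb, Fosl1, Jun, Junb and Jund and none for Fosl2 and Atf3.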

How the data were processed

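Uterine RNA (500 ng, Cy3) was hybridized to 20 one-colour arrays, 1 uterus each. Per the file headers and the submitters' processing notes, the deposited intensity values came from Agilent Feature Extraction 9.5, background-subtracted and detrended within an array but not scaled between arrays, beside spot flags. The deposited series table held the same intensity values on all 20 arrays. From these, control and outlier spots were dropped, spots of a probe averaged, and the log2 of the deposited intensity had the array's own log2 75th percentile subtracted. The spot total is fixed, so the number of arrays limits precision. Groups came from the labels, which swap the treatment and time fields. A probe entered the test if some group had it well above background on all its arrays (32460 of 41174), and these were fitted with limma 3.58.1 in R 4.3.3 (1 mean for each of 7 groups, no covariate, two-sided, Benjamini-Hochberg within a contrast, 0.05). P-values measure the spread between uteri within a group. Scripts were tested on simulated data. Figures used matplotlib in Python 3.11.15. The members and lists were chosen with earlier results of these data known. Genes named were the 8 members, the 3 genes closest to each in Pearson r, and, in each list and contrast, up to 4 called genes with the largest change, of which a few are not reported here. Lists got no set test. Alternatives were other background correction, scaling, filter, call rule, probe averaging, samples fitted, slide and replicate blocks, and leaving out each array.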

Additional observations from a re-analysis of the deposited data

Results flagged for a closer look

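The change from 2 h to 24 h differed from that with E2 in 8 tests of the difference itself with limma, each over the 3 or 2 arrays of the groups concerned. These were 4 of 8 members with BPA and 4 of 8 with HPTE, beside 50.9% and 46.1% of all probes. The members' share was thus close to that of the array. Jun differed by 1.90 with BPA (SE 0.23, adjusted p = 6.75e-06) and by 1.58 with HPTE (SE 0.23, adjusted p = 5.25e-05). Fosl1 differed by -2.28 with BPA (SE 0.58, adjusted p = 0.00396) and by -2.21 with HPTE (SE 0.58, adjusted p = 0.00566). Jund differed by -0.61 with BPA (SE 0.20, adjusted p = 0.0163) and by -0.63 with HPTE (SE 0.20, adjusted p = 0.0154). Atf3 differed by 1.05 with BPA (SE 0.39, adjusted p = 0.0361) and Fosl2 by -0.34 with HPTE (SE 0.11, adjusted p = 0.0229). The call of Atf3 was lost on leaving out E2 2 h replicate 2 (1.02, adjusted p = 0.0634) or 3 (0.92, adjusted p = 0.0814), either E2 24 h array, BPA 2 h replicate 2 or 3, or BPA 24 h replicate 1 or 3, and that of Fosl2 without E2 2 h replicate 2 (-0.27, adjusted p = 0.056), E2 24 h replicate 3 or HPTE 2 h replicate 2. Without E2 2 h replicates 2 and 3 together Atf3 was 0.72 (adjusted p = 0.245). With both its probes averaged Fosl2 was -0.07 (adjusted p = 0.789), and with spike-in scaling -0.99 (adjusted p = 0.0981). With slide as a fixed block Jund (adjusted p = 0.0597 and 0.0629) and Fosl2 (adjusted p = 0.0637) did not pass. Jund with BPA also did not pass with quantile scaling, alone or after normexp background (adjusted p = 0.0529 each), or with spike-in scaling (adjusted p = 0.107). Atf3 did not pass with quantile scaling, alone (adjusted p = 0.0698) or after normexp background (adjusted p = 0.0748). It did not pass without scaling (adjusted p = 0.286) or with spike-in scaling (adjusted p = 0.394). A positive value means a smaller fall, and a negative value a larger fall, than with E2. No group had the 4 arrays that a check for single outlying arrays needs.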

How the results depend on the processing

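All members' rises at 2 h against vehicle kept their direction under every alternative, and 414 of 416 recomputed results also kept their call, the others being Fosl1 with E2 without E2 2 h replicates 2 and 3 and Jun with BPA at a change of at least 2-fold. Against vehicle at 24 h 350 of 400 were unchanged in direction and call and 31 changed sign, all of members that were not called in the reported fit. Among these, Junb with E2 was called under the alternative with normexp background and quantile scaling (-0.34, adjusted p = 0.0341). It was also called with quantile scaling alone (-0.33, adjusted p = 0.049). Between compounds 355 of 424, and between times 402 of 408, were unchanged. The cause of the changes below was not tested.

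With normexp background and quantile scaling, 4 members were called for E2 24 h (2 before), beside 59.5% of all probes. For BPA 24 h 1 was called (0 before, 15.8% of all probes). Called were 4 for BPA against E2 at 24 h (2 before, 51.9%) and 2 for the BPA and E2 time courses (4 before, 46.8%). The 24 h differences turned to -0.34 (Junb) and -0.27 (Jund) with E2 and to 0.09 (Fosl1), -0.12 (Junb) and -0.22 (Jund) with HPTE. Quantile scaling alone moved the median of all probes with E2 at 24 h from -0.15 to 0.01. It gave 5 for E2 24 h (60.7% of all probes) and 2 for the BPA and E2 time courses (47.8%). The 24 h differences were then -0.33 (Junb) and -0.25 (Jund) with E2 and 0.35 (Fosl1), -0.07 (Junb) and -0.18 (Jund) with HPTE. Without scaling, 0 were called for HPTE 24 h (1 before), beside 24.8% of all probes. For HPTE against E2 at 24 h 1 was called (2 before, 38% of all probes). The 24 h differences were then -0.05 (Fosl1) for BPA and -0.04 (Junb) and -0.05 (Jund) for HPTE. Spike-in scaling gave 1 for E2 24 h (35.4% of all probes, 63.8% before) and 0 for HPTE 24 h (11.3%, 34% before). Against E2 at 2 h it gave 1 for BPA (1.95%, 19% before) and 1 for HPTE (2.46%, 16.6% before), from 3 each. HPTE against E2 at 24 h had 0 (18.2%, 48.8% before). Both time-course comparisons with E2 had 2 (18.5% for BPA and 21.7% for HPTE), from 4 each. The 24 h differences were then -0.01 (Fosb) and -0.06 (Fosl1) for BPA and -0.23 (Junb) and -0.24 (Jund) for HPTE.

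HPTE against E2 at 24 h had 1 call with no filter on dim probes (37.3% of all probes) and with only the groups compared (44.8%). The count was also 1 at a change of at least 2-fold (14.6%) and with slide as a fixed block (46.5%). It was 1 again with the mean of all probes of a gene (48% of all genes). With that mean Fosl2 was 0.04, and 33.6% of all genes were called for HPTE 24 h. BPA against E2 at 2 h had 0 calls with only the groups compared, where 1.27% of all probes were called. At a change of at least 2-fold, calls were 1 for E2 24 h (28.4% of all probes) and 0 for HPTE 24 h (6.13%). They were 1 for HPTE against E2 at 2 h (3.34%) and 2 for the HPTE and E2 time courses (21.2%). Slide as a fixed block gave 4 for E2 24 h (57.5% of all probes) and 1 for HPTE against E2 at 2 h (9.26%). It gave 2 for the HPTE and E2 time courses (42.8%), and a difference of 0.38 for Fosl1 with HPTE at 24 h. The mean of all probes left 0 for HPTE 24 h, and leaving out E2 2 h replicates 2 and 3 left 1 for HPTE against E2 at 2 h. Slide as a random block had a consensus correlation of 0.02.

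Replicate numbers did not pair the samples: the deviations of same-numbered arrays correlated at -0.20 to 0.29 for replicate 1, -0.36 to 0.33 for 2 and -0.29 to 0.33 for 3. With the replicate block, HPTE against E2 at 24 h had 1 call in place of 2, beside 47.2% of all probes. Every other count of calls stayed within 1.5 times.

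Leaving out 1 array at a time gave 1 to 2 calls for E2 24 h, 0 to 1 for HPTE 24 h, 1 to 2 for HPTE against E2 at 2 h, 1 to 1 at 24 h and 2 to 4 for the HPTE and E2 time courses. The 24 h differences from vehicle ranged, with E2, from -0.07 to 1.15 (Fosl1), -0.20 to 0.22 (Junb) and -0.01 to 0.25 (Jund), with BPA from -0.18 to 0.50 (Fosb), -0.15 to 0.24 (Fosl1) and -0.24 to 0.03 (Jund), and with HPTE from -0.31 to 0.01 (Fos), -0.37 to 0.13 (Fosl1), -0.07 to 0.17 (Junb) and -0.09 to 0.18 (Jund). Fos in HPTE against BPA at 2 h ranged from -0.01 to 0.64. Shares of all probes called were not computed for these fits.

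With 2 or 3 arrays a group, small differences between compounds cannot be resolved. Fosl1 and Fosb in vehicle were dim, and the sizes of their rises at 2 h moved with the background correction.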
